A study of Mus musculus with 4 samples.

Results

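The response of Stat4-deficient colonic epithelial cells to leukemia inhibitory factor (LIF) was read from 1 pair of RNA sequencing libraries, Stat4-/- cells with LIF and Stat4-/- cells without it. Its members were all genes averaging at least 1 FPKM over the 4 libraries of the series, 12274 of the 17604 genes listed, and the pair is 2 of the 4 samples. For each gene the difference was taken as log2((LIF + 1)/(control + 1)), so that a positive value means a higher level in the LIF library. FPKM counts sequenced fragments relative to transcript length and library size, so levels can be compared between genes per length.

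All 4 samples were epithelial cells isolated from the colon of C57BL/6 mice, either wild type or Stat4-/-, a genotype given without the name of the allele or the sex and age of the animals. The cells were grown on Matrigel, a basement membrane preparation, in medium with serum and insulin. They were left for 24 h to attach, after which loose material was washed off, and they were collected untreated (control) or after 20 ng/ml of LIF. Exposure times are mentioned in the labels without one being tied to a sample, and the design text speaks of duplicates although each group has 1 sample, so whether a library stands for pooled animals or cultures is not stated. Every difference below is thus between single libraries with no replicates, and no test was made. Weak genes move in steps of single fragments, and from these steps the depth came to about 22.8 M fragments (M for mega) without and 27.6 M with LIF in the Stat4-/- pair, and to about 24.1 and 21.8 M in the wild-type pair. In the Stat4-/- pair, 1 fragment on a transcript of 2 kb was then worth 0.0219 and 0.0181 FPKM. Where a counting error is given, it was computed from these approximate depths and covers counting error only.

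LIF is a cytokine of the interleukin-6 family. It binds the LIF receptor, which pairs with gp130, and the receptor-bound Janus kinases (JAKs) then phosphorylate STAT3 above all. STAT3 dimers enter the nucleus and switch on genes that include Socs3, whose product blocks gp130 in return. STAT4 is a relative of STAT3 that is best known downstream of interleukin-12 in lymphocytes. In the gut epithelium, STAT3 signalling is known for its part in wound repair and antimicrobial defence.

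The sequences that follow are stretches of 120 bases from the promoters of 6 genes whose groups stood apart in the pair, 2 genes for each motif. They are RefSeq promoters of mouse build GRCm38.p6, read 5′ to 3′ on the strand of the gene, and capitals mark a match to a short motif on either strand. For Bnip3, a hypoxia target, and Pgam1, a glycolysis gene, the motif is ACGTG, the core bound by hypoxia-inducible factors. For the interferon-induced genes Ifit3 and Gbp2 it is GAAANNGAA, the repeat bound by interferon regulatory factors, and for the chemokine genes Cxcl1 and Cxcl2 it is GGNNTTTCC, a site of the NF-kB type. The windows are chr7:138909549-138909668 (minus strand) for Bnip3, chr19:41911702-41911821 (plus) for Pgam1, chr19:34583372-34583491 (plus) for Ifit3, chr3:142620550-142620669 (plus) for Gbp2, chr5:90891120-90891239 (plus) for Cxcl1 and chr5:90903767-90903886 (plus) for Cxcl2.
Bnip3: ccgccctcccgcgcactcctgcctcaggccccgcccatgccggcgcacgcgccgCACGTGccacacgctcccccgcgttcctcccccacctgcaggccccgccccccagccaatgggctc
Pgam1: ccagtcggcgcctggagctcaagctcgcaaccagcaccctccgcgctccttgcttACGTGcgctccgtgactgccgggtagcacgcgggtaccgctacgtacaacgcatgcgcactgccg
Ifit3: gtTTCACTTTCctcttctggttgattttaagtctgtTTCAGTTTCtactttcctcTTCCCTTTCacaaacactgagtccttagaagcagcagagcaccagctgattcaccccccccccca
Gbp2: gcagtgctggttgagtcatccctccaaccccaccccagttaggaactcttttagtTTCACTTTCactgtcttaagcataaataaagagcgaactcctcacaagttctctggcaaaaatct
Cxcl1: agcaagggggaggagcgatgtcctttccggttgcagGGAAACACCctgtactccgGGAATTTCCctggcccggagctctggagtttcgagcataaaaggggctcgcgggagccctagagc
Cxcl2: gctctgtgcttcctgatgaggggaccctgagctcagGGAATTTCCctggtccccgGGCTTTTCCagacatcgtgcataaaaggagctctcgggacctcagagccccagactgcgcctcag

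The capitals in the Bnip3 promoter are a palindrome that reads as 2 overlapping matches, 1 on each strand. The Ifit3 window holds 3 separate matches, the Cxcl1 and Cxcl2 windows hold 2 each, and the Pgam1 and Gbp2 windows hold 1. The match nearest the start began 107 bases before it in Bnip3, 114 in Pgam1, 102 in Ifit3, 58 in Gbp2, 70 in Cxcl1 and 77 in Cxcl2. A match is a description of the letters and not evidence of binding.

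The LIF and control libraries of Stat4-/- cells were close to each other. Of the 12274 genes, 5890 were higher and 6322 lower in the LIF library, and 62 were equal, with a median log2 difference of -0.006 and an SD of 0.183. The levels of 65.7% of the genes lay within 1.1-fold and of 88.8% within 1.2-fold. At least 2-fold higher were 8 genes (0.0652% of those measured) and at least 2-fold lower were 7 (0.057%). At 1.5-fold, a log2 difference of 0.585, the counts were 55 higher (0.448%) and 68 lower (0.554%). The wild-type pair, which shares no library with this one, gave 72 genes at least 1.5-fold higher (0.587%) and 35 lower (0.285%) with an SD of 0.185. Of the 11923 genes with a transcript length, 25.7% differed by more than 2 counting errors in Stat4-/- cells and 22.6% in wild-type cells, in which counting error stands for the SE of the log2 difference. An effect of LIF and other differences between 2 single libraries cannot be told apart with 1 library per side.

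Large differences sat among weakly expressed genes, as the plot of difference against level shows. Below a mean of 5 FPKM the SD was 0.256 and the typical counting error 0.158, whereas at 100 FPKM and above the SD was 0.113 and the counting error 0.031. The low band held 3436 of the 12274 genes. It held 45 of the 55 genes that were 1.5-fold higher and 50 of the 68 that were lower. In the wild-type pair, the 55 genes had a median difference of 0.168, with 37 above 0, against 50.9% of all genes. The 68 lower genes had a wild-type median of 0.014, with 36 above 0 and 32 below. Differences also moved slightly with base composition. Genes with transcripts under 45% GC had a median of 0.020 and those of 55% or more had -0.025, while the same bands in the wild-type pair stood at -0.014 and 0.026.

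**Figure D1:**
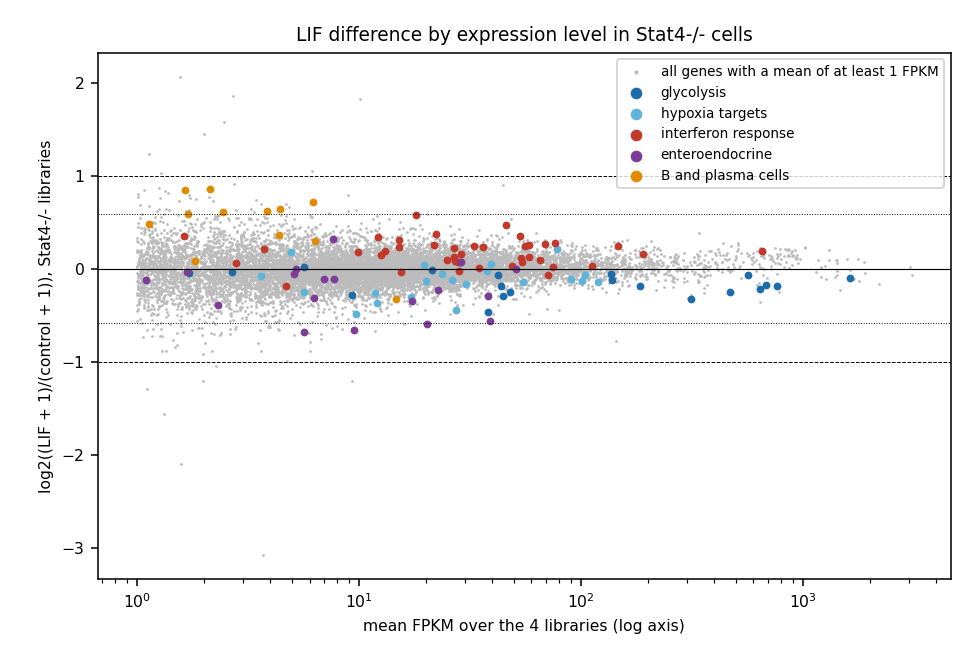
Log2 difference between the Stat4-/- LIF and control libraries (y) against the mean FPKM over the 4 libraries (x, log axis), 1 point per gene, with 5 gene lists coloured. Dotted lines mark 1.5-fold and dashed lines 2-fold. The scatter narrows from an SD of 0.256 under 5 FPKM to 0.113 at 100 FPKM and above, and most points past 2-fold lie at the low end.

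Genes past 2-fold often had close copies, between which reads may be split. Of the 8 higher genes, 4 shared over 50% of their 31-base words with another gene, as did 5 of the 7 lower ones, against 1.8% of all genes. Sprr2a2, a small proline-rich protein of the cornified envelope, was at 7.69 FPKM in the control library and 0.03 FPKM in the LIF library, and at 6.99 and 0.03 FPKM in wild type. It shares 97.8% of its words, and the 3 Sprr2a genes summed to 1413 and 1213 FPKM. Defa20, a defensin gene, was at 2.56 and 11.6 FPKM (log2 difference 1.82) with 91.9% shared words, whereas the 17 listed defensin genes summed to 107 and 112 FPKM. Gm3448 was listed at 0 in the control library and at 3.19 FPKM with LIF, and its copy Gm3417 at 3.28 FPKM and 0, with sums of 3.28 and 3.19 FPKM. For the histone genes Hist2h2aa2 (0 and 2.62 FPKM) and Hist1h3b (0 and 1.99 FPKM) no fold is given, and the 28 histone cluster genes measured had a median of -0.01. In each of these families the sum differed far less than the single copy.

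Of the remaining genes past 2-fold, those with under 10% shared words were few and weakly expressed. Ccl4, a chemokine for T cells and monocytes, was at 0.72 and 2.52 FPKM, which is about 11 and 46 fragments. Ms4a4b, a T cell membrane protein, was at 0.35 and 2.17 FPKM, about 6 and 47 fragments. In wild type these genes were at 1.31 and 0.62 FPKM (Ccl4) and at 1.07 and 0.94 FPKM (Ms4a4b), so neither was higher with LIF there. Tnni2, a fast muscle troponin, was at 2.71 and 0.61 FPKM and at 2.90 and 1.73 FPKM in wild type. The other genes past 2-fold were Hist1h1e and Hba-a2 on the higher side and Gm14305, Gm12657, Rpl37rt and Bglap on the lower side. Bglap was listed at 0 in the LIF library.

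Among genes averaging 5 FPKM or more, the highest after Defa20 and Hba-a2 was H2-Q6, a nonclassical MHC class I gene on chromosome 17 (35424850 to 35430055 in mm10). It was at 30.0 FPKM in the control library and 57.1 FPKM in the LIF library (0.90), and at 34.4 and 57.3 FPKM in wild type (0.72). H2-Q6 shares 49.2% of its words with other genes, and summed with its neighbour H2-Q7 it went from 67.6 to 102 FPKM. Both LIF libraries were thus above both control libraries for H2-Q6. The next places were taken by Sprr2b, the B cell receptor subunit Cd79a, Ebag9, Srek1ip1, the mast cell protease Mcpt2, the eosinophil chemokine Ccl11 and the interferon-induced GTPase Tgtp2. Of the 31-base words of Hba-a2 and Tgtp2, 92.6 and 90.5% also occur in another gene. Next came the related GTPase Iigp1, Rpa2 (a subunit of replication protein A), the leukocyte actin regulator Coro1a, the lymphatic growth factor Vegfc and AI467606. From Sprr2b to AI467606 the differences ran from 0.79 to 0.56.

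The lowest genes at that level were Rpl37rt, Rep15, Ffar4 and Clu. Rpl37rt, annotated as a transcribed pseudogene of a ribosomal protein, was at 11.9 and 4.60 FPKM (-1.20) and at 6.89 and 13.9 FPKM in wild type (0.92). Together with Rpl37 it summed to 279 and 302 FPKM. Rep15, encoding a Rab15 effector, was at 5.74 and 2.66 FPKM (-0.88), and Ffar4, a receptor for long-chain fatty acids, at 6.71 and 3.48 FPKM (-0.78). Clu, the secreted chaperone clusterin (chromosome 14, 65968483 to 65981547), was the only gene at 100 FPKM or above to pass 1.5-fold in either direction. Below these came Dmpk, the mesothelial protein Msln, Igsf23, the smooth muscle phosphatase inhibitor Ppp1r14a and the hormone secretin, Sct. Arl3, the insulin-like peptide Insl5, Lsm10, Stmn3, Tubb2b and the muscle filament desmin, Des, followed. From Dmpk to Des the differences ran from -0.76 to -0.60.

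Several groups of genes leaned one way together, as the plot of the 34 gene lists shows. List medians ran from -0.174 for glycolysis to 0.603 for B and plasma cells, against -0.006 over all genes. A list is described by how many of its measured members lay above or below 0 and by its median, without a test.

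**Figure D2:**
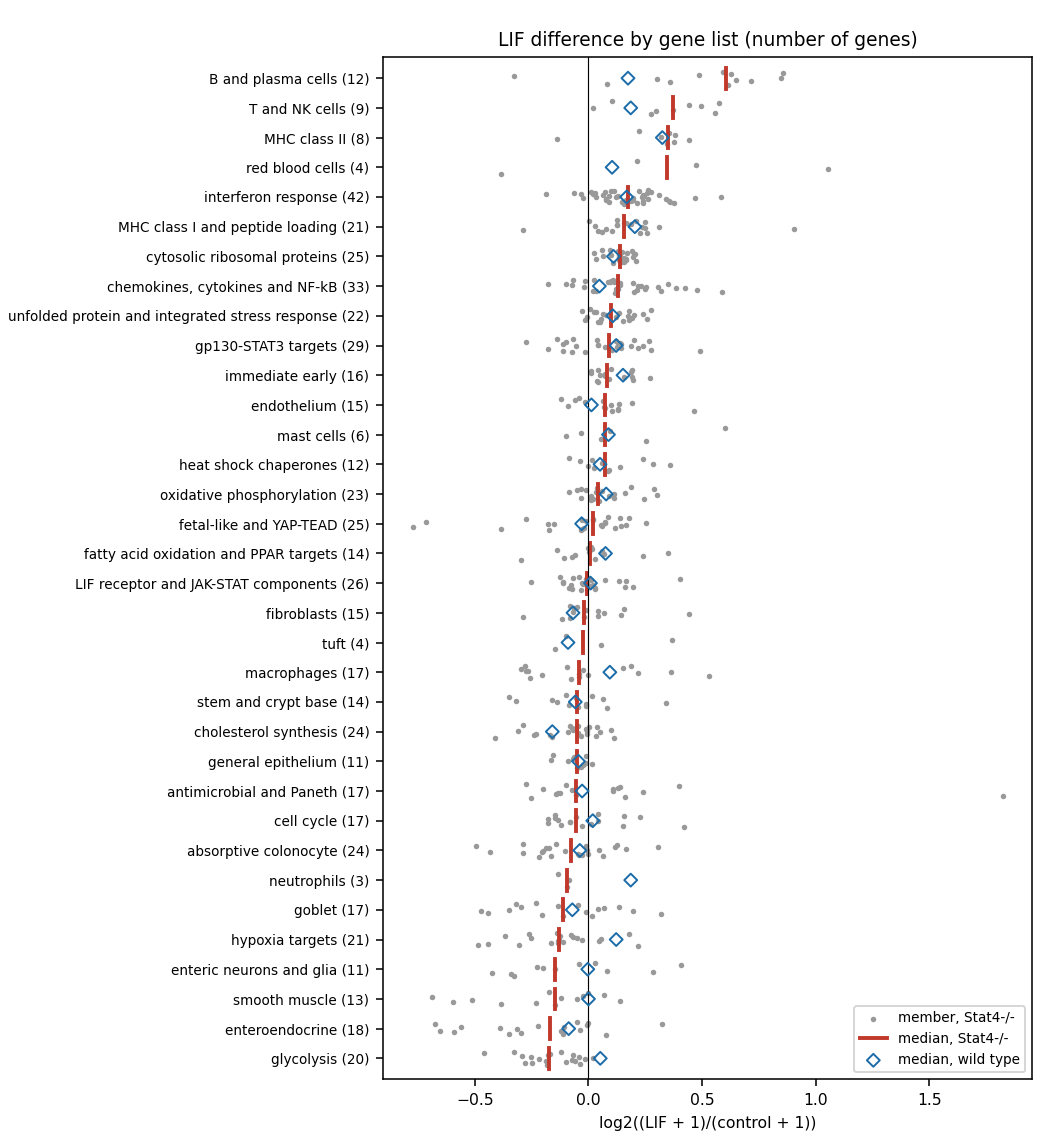
Log2 difference between LIF and control libraries for 34 gene lists, ordered by their Stat4-/- median. Grey points are members in Stat4-/- cells, red bars their medians and blue diamonds the medians of the same genes in the wild-type pair. Glycolysis and hypoxia targets lie left of 0 in Stat4-/- cells (-0.174 and -0.129) and right of 0 in wild type (0.052 and 0.122), while the interferon medians are close (0.174 and 0.168).

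The pathway that LIF engages was expressed with and without LIF. Stat4, the gene named in the genotype (chromosome 1, 51987148 to 52107189), was at 2.01 FPKM in the control library and 2.98 FPKM in the LIF library of Stat4-/- cells. In wild type it was at 19.7 and 20.5 FPKM, so the libraries go with their genotype labels. Some Stat4 mRNA was still counted in both Stat4-/- libraries, from about 84 and 152 fragments. Which part of the transcript these fragments came from cannot be read from a single value per gene. Of 26 measured receptor and JAK-STAT genes, 11 were higher and 15 lower with LIF (median -0.008), and none passed 1.5-fold, where 0.448% of all genes were that much higher and 0.554% that much lower. Lifr, the LIF receptor, was at 4.89 and 4.80 FPKM, and Il6st, which encodes gp130, at 68.7 and 69.0 FPKM. Stat3 was at 66.1 and 65.6 FPKM and Jak1 at 56.9 and 57.7 FPKM. The other kinases Jak2 (25.5 and 24.1 FPKM) and Tyk2 (8.81 and 8 FPKM) were at similar levels with and without LIF. The cytokine genes of the family were read out too. Lif itself was at 63.8 and 63.6 FPKM, Il11 at 283 and 289 FPKM and Il6 at 48.03 and 55.1 FPKM, so the control library also held Lif mRNA.

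Targets of gp130 and STAT3 were slightly higher, with 19 of 29 above 0 and a median of 0.089. In wild type 23 of the same 29 were above 0 and the median was 0.122. Socs3, the feedback inhibitor of gp130 (chromosome 11, 117966079 to 117970047), was at 38.0 and 43.8 FPKM (0.20), and at 28.7 and 36.2 FPKM in wild type (0.33). The Stat4-/- control level was thus already above the wild-type LIF level. Socs1, which blocks JAK kinases, was at 7.67 and 9.43 FPKM (0.27), and Cebpd, an acute phase transcription factor, at 60.8 and 73.9 FPKM (0.28). Lcn2, which withholds iron from bacteria, was at 13.6 and 16.3 FPKM (0.24), and Icam1, a leukocyte adhesion molecule, at 59.7 and 69.6 FPKM (0.22). The serum amyloid genes Saa1 (34.0 and 31.7 FPKM, -0.10) and Saa3 (5.48 and 4.36 FPKM, -0.27) were lower with LIF here and higher in wild type (0.24 and 0.33). The anti-apoptotic Bcl2l1, at 56.3 and 55.8 FPKM, and the cytokine receptor Osmr, at 33.6 and 31.02 FPKM, were no higher with LIF. The highest difference of the list, Birc5, rested on 0.96 and 1.75 FPKM. The STAT motif TTCNNNGAA was found in 5 of 29 promoters of these genes (17.2%), against 8.30% of all 32851 mouse promoters, and the NF-kB motif in 10 (34.5%), against 5.82%.

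Interferon-response genes were higher with LIF by small amounts. Of 42 measured, 38 were above 0, with a median of 0.174 and a range from -0.19 to 0.58. Iigp1, which attacks the vacuoles of intracellular parasites, was at 20.6 and 31.3 FPKM (0.58) and at 9.30 and 11.5 FPKM in wild type (0.28). Ifit3, an antiviral protein that acts with its relatives on foreign RNA, was at 52.3 and 72.8 FPKM (0.47) and shares 61.8% of its words with close copies, of which Ifit3b was at 38.0 and 37.4 FPKM. Cxcl10, a T cell chemokine, was at 29.2 and 38.3 FPKM (0.38), while in wild type it was at 11.0 and 10.6 FPKM (-0.05). The guanylate-binding protein Gbp3 was at 63.0 and 80.9 FPKM (0.36), and the ubiquitin-like modifier Isg15 at 167 and 198 FPKM (0.24). The GTPase Mx2 was at 16.7 and 20.9 FPKM (0.31), and the small membrane protein Ifitm3 at 720 and 824 FPKM (0.19). The oligoadenylate synthetases made the low end, with Oas2 at 5.97 and 5.12 FPKM (-0.19), Oasl2 at 85.4 and 81.7 FPKM (-0.063) and Oas3 at 18.6 and 18.1 FPKM (-0.034). Transcription factors of the pathway differed little, with Stat2 at 39.6 and 39.9 FPKM and Irf7 at 128 and 131 FPKM. In wild type the list median was 0.168, also with 38 of 42 above 0. The Stat4-/- LIF library was the highest of the 4 libraries for 38 of the 42 genes, compared with 26.4% of all genes. This rank also holds the difference between genotypes. Summed over the list, the Stat4-/- control library, at 2691 FPKM, already stood above the wild-type LIF library, at 2033 FPKM. The wild-type control library was the lowest for 38 of the 42, against 27.6% of all genes. The motif GAAANNGAA shown above for Ifit3 and Gbp2 was present in 21 of 35 promoters of the list (60%), against 8.56% of all promoters and 7.15% of those of measured genes. Over the 818 measured genes with this motif the median difference was 0.005, and over the 8630 without it -0.008.

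Genes for antigen presentation showed the same direction. Of 21 MHC class I and peptide loading genes, 20 were above 0 (median 0.158), and in wild type 19 were (median 0.204). B2m, the light chain of every class I molecule, was at 1064 and 1243 FPKM (0.23), Tap1, a peptide transporter subunit, at 34.0 and 39.5 FPKM (0.21) and Psme2, a proteasome activator subunit, at 149 and 177 FPKM (0.25). The peptide-trimming enzyme Erap1 was at 21.8 and 26.3 FPKM (0.26) and at 20.7 and 20.8 FPKM in wild type. The heavy chains H2-D1 (562 and 585 FPKM, 0.058) and H2-L (685 and 704 FPKM, 0.041) differed little, and H2-M3 was lower (9.22 and 7.37 FPKM, -0.29). Heavy chain genes resemble each other, and H2-D1 shares 26.5% and H2-T22 51.5% of their words with other genes, so single values are uncertain. Of 8 MHC class II genes that passed the filter, out of 10, 7 were above 0, with a median of 0.352 and 0.325 in wild type. The invariant chain Cd74 was at 44.8 and 57.2 FPKM (0.35), H2-Ab1 at 15.4 and 21.3 FPKM (0.44) and H2-Aa at 18.4 and 24.3 FPKM (0.38). Ciita, the master regulator of class II genes, was under the filter at 0.41 and 0.65 FPKM.

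**Figure D3:**
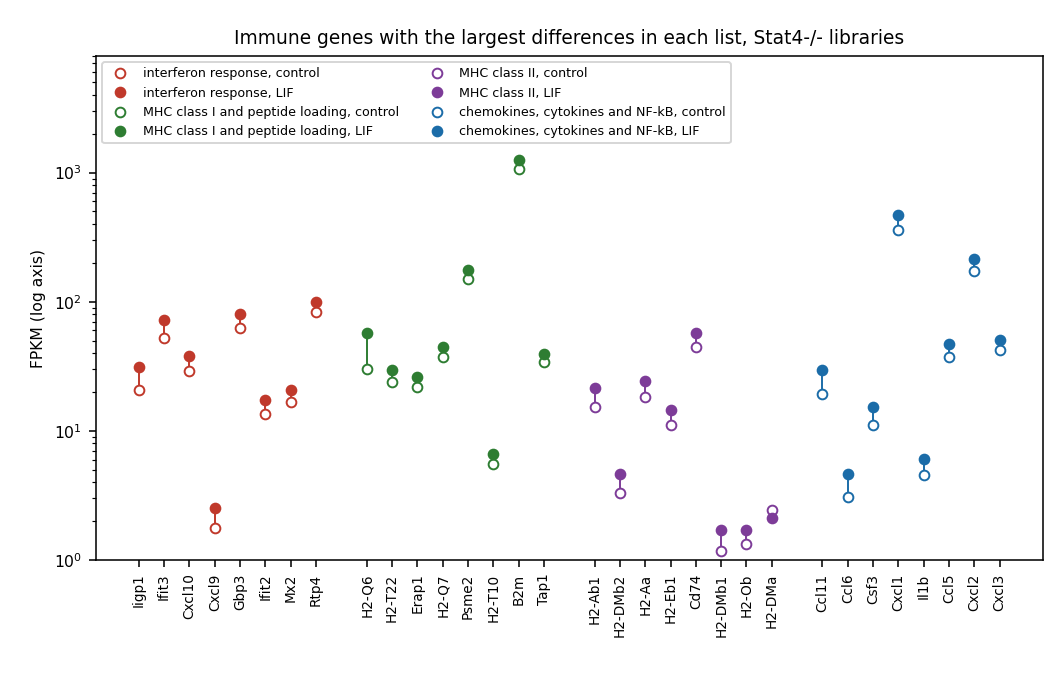
FPKM (log axis) in the Stat4-/- control library (open circles) and LIF library (filled circles) for the 8 members with the highest differences in each of 4 immune lists. Filled circles lie above open ones for every gene drawn except H2-DMa (2.42 and 2.11 FPKM), and levels span from about 1 FPKM to 1243 FPKM for B2m.

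Chemokine, cytokine and NF-kB genes were higher in 27 of 33 cases, with a median of 0.129 and a range from -0.18 to 0.59. Cxcl1, a neutrophil chemokine (chromosome 5, 90891241 to 90893115), had the highest difference of the genes at 100 FPKM or above, at 358 and 469 FPKM (0.39) and 249 and 294 FPKM in wild type (0.24). Its neighbour Cxcl2 was at 173 and 214 FPKM (0.31), and Cxcl5, of the same class, at 88.0 and 104 FPKM (0.23). Csf3, which drives neutrophil production, was at 11.1 and 15.2 FPKM (0.43) and at 5.82 and 8.58 FPKM in wild type (0.49). The monocyte chemokine Ccl2 was at 246 and 283 FPKM (0.20). Ccl11 was at 19.4 and 29.6 FPKM (0.59), and at 20.0 and 20.7 FPKM in wild type (0.048), and was the sole member at least 1.5-fold higher, against 0.448% of all genes. Genes for other cytokines were split. Il1b was at 4.58 and 6.1 FPKM (0.35) and Csf1, a growth factor of macrophages, at 55.4 and 60.7 FPKM (0.13), whereas values below 0 included those of Il33 at 5.74 and 4.96 FPKM (-0.18), the interleukin-1 antagonist Il1rn at 247 and 231 FPKM (-0.098) and Tnf at 7.98 and 7.57 FPKM (-0.067). The NF-kB subunit Nfkb1 was at 57.8 and 63.6 FPKM (0.14) and its inhibitor Nfkbia at 149 and 161 FPKM (0.11). The wild-type median of the list was 0.048, with 24 of 33 above 0. The NF-kB motif shown for Cxcl1 and Cxcl2 was in 16 of 30 promoters (53.3%), against 5.82% of all promoters and 6.15% of those of measured genes. Over the 701 measured genes with this motif the median difference was -0.007, and over the 8747 without it also -0.007.

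The glycolytic pathway was lower with LIF in Stat4-/- cells at nearly every step. Of 20 genes, 19 were below 0, with a median of -0.174, and in wild type 15 of the same 20 were above 0, with a median of 0.052. Slc16a3, the lactate exporter (chromosome 11, 120948480 to 120960868), had the lowest difference, at 43.8 and 31.6 FPKM (-0.46), and was at 35.7 and 41.1 FPKM in wild type (0.20). Glucose entry differed less, with the transporter Slc2a1 at 147 and 135 FPKM (-0.12) and hexokinase 1, Hk1, at 44.98 and 39.4 FPKM (-0.19). The phosphofructokinase genes Pfkp (48.8 and 39.7 FPKM, -0.29) and Pfkl (54.7 and 45.8 FPKM, -0.25) encode the committed step. Tpi1, triose phosphate isomerase (chromosome 6, 124810586 to 124814296), was at 344 and 274 FPKM (-0.33), against 308 and 324 FPKM in wild type (0.076). Eno1, enolase, was at 498 and 418 FPKM (-0.25), and Pkm, pyruvate kinase, at 741 and 659 FPKM (-0.17). Lactate dehydrogenase, Ldha, was at 667 and 574 FPKM (-0.22) and at 652 and 675 FPKM in wild type. The most abundant member, Gapdh, was at 1734 and 1620 FPKM (-0.098). Pfkfb4, at 4.84 and 4.93 FPKM, was the exception. Summed over the list, the levels were 6140 FPKM in the control library and 5496 FPKM in the LIF library, and 5663 and 5882 FPKM in wild type. The Stat4-/- control library was the highest of the 4 for 13 of the 20 genes, against 20.8% of all genes, and the Stat4-/- LIF library the lowest for 9, against 30.8%.

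Targets of hypoxia-inducible factor outside glycolysis had the same pattern, with 17 of 21 below 0 (median -0.129) in Stat4-/- cells and 17 of 21 above 0 (median 0.122) in wild type. Ak4, a mitochondrial adenylate kinase, was at 11.6 and 7.99 FPKM (-0.48) and at 8.96 and 10.3 FPKM in wild type (0.18). Bnip3, which marks mitochondria for removal (chromosome 7, 138890836 to 138909519), was at 31.4 and 22.8 FPKM (-0.44) and at 26.5 and 29.5 FPKM in wild type (0.15). The collagen prolyl hydroxylase P4ha2 was at 14.8 and 11.3 FPKM (-0.37), and the oxygen sensor Egln3 at 52.6 and 47.8 FPKM (-0.14). Vegfa, the angiogenic factor, was at 132 and 120 FPKM (-0.14) and level in wild type at 114 FPKM in both libraries. Adm, adrenomedullin, went the other way, at 77.4 and 90.2 FPKM (0.22), and so did Stc2, at 5.20 and 6.01 FPKM (0.18). Lower in Stat4-/- and higher in wild type were 14 of the 20 glycolysis genes and 13 of the 21 hypoxia targets, against 2689 of all 12274 genes (21.9%). The difference between the genotypes was not tested, since it leaves 0 residual degrees of freedom. Hif1a itself, a STAT3 target as well, was at 97.9 and 108 FPKM (0.14). The core ACGTG shown for Bnip3 and Pgam1 was in 16 of 32 promoters of the glycolysis list (50%) and in 14 of 26 of the hypoxia list (53.8%), against 19.6% of all promoters and 25.1% of those of measured genes. Over the 2765 measured genes with the core the median was -0.005, and without it -0.007. Glycolysis transcripts had a median GC content of 54.4%, in a band (50 to 55%) in which the median over all genes was -0.011 in this pair. With differences centred within bands of GC content and level the glycolysis median was -0.190 and the hypoxia median -0.130.

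**Figure D4:**
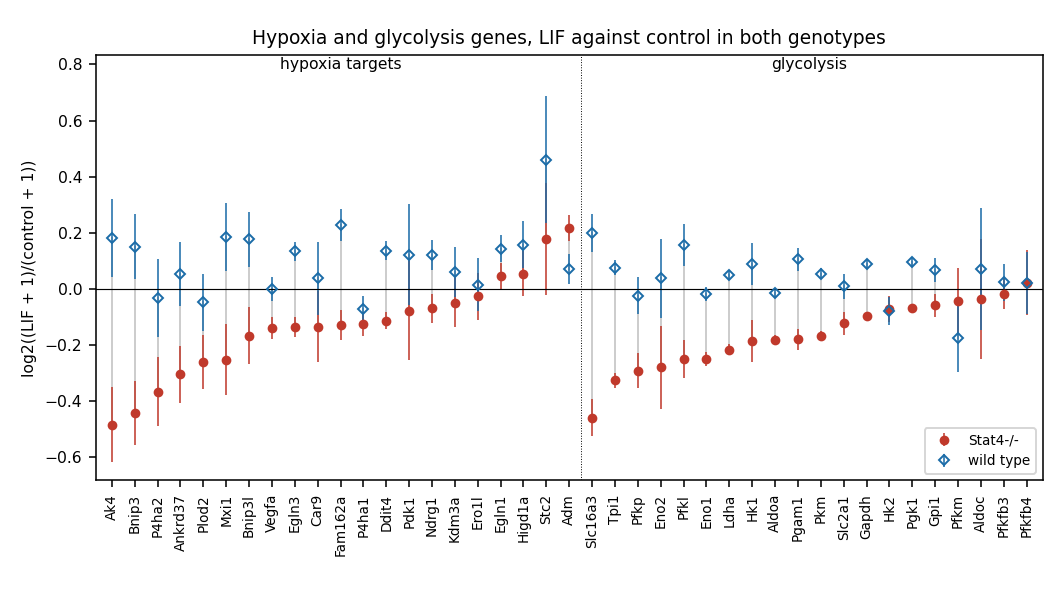
Log2 difference between LIF and control libraries for 21 hypoxia targets and 20 glycolysis genes in Stat4-/- cells (red circles) and wild-type cells (blue diamonds), with bars of 1 approximate counting error. Red points lie below 0 for 17 and 19 genes and blue points above 0 for 17 and 15.

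Respiratory chain genes were not lower. Of 23 subunits of oxidative phosphorylation, 18 were above 0, with a median of 0.040, led by Ndufa4 (145 and 179 FPKM, 0.30) and Uqcrb (126 and 155 FPKM, 0.29). Fatty acid oxidation and PPAR targets were balanced, with 8 of 14 above 0 (median 0.007). Among them Acaa2, the last enzyme of mitochondrial beta-oxidation, was at 14.8 and 11.9 FPKM (-0.30) and Angptl4, a lipase inhibitor, at 44.9 and 53.3 FPKM (0.24). Genes of cholesterol synthesis were below 0 in 18 of 24 cases with a median of -0.050, and in wild type in 19 of 24 with a median of -0.159. Cyp51, lanosterol demethylase, was at 8.54 and 6.18 FPKM (-0.41), and Fdps, which makes farnesyl diphosphate, at 20.96 and 17.6 FPKM (-0.24), whereas squalene epoxidase, Sqle, was at 14.3 FPKM in both libraries.

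Genes of hormone-producing enteroendocrine cells were lower with LIF. Of 27 genes on the list 18 passed the filter, 16 of these were below 0 with a median of -0.171 (-0.106 without the filter), and 3 were at least 1.5-fold lower, against 0.554% of all genes. Sct was at 5.47 and 3.05 FPKM (-0.68) and at 9.10 and 5.07 FPKM in wild type (-0.74). Insl5, a hormone of colonic L cells (chromosome 4, 103017872 to 103026842), was at 11.6 and 7 FPKM (-0.65) and at 10.5 and 9.22 FPKM in wild type (-0.17). Gcg, which encodes proglucagon (chromosome 2, 62474530 to 62483650), was at 23.2 and 15.1 FPKM (-0.59) and at 26.2 and 16.7 FPKM in wild type (-0.62). Both LIF libraries were below both control libraries for Sct, Insl5 and Gcg. Pyy, peptide YY, was at 41.3 and 27.7 FPKM (-0.56), but at 41.2 and 45.3 FPKM in wild type (0.13). The granule genes Chgb (18.4 and 14.3 FPKM, -0.35) and Cpe (38.0 and 30.8 FPKM, -0.30) were lower as well, and so was the prohormone convertase Pcsk1 (2.14 and 1.40 FPKM, -0.39). Neurotensin, Nts, was at 6.22 and 4.8 FPKM (-0.32). Smaller differences were those of somatostatin, Sst, at 46.6 and 46.6 FPKM, cholecystokinin, Cck, at 17.9 and 18.9 FPKM and Tph1, the enzyme of serotonin synthesis, at 4.44 and 4.25 FPKM. Scg5, a secretory granule chaperone, was higher (6.34 and 8.19 FPKM, 0.32). The Stat4-/- LIF library was the lowest of the 4 for 15 of the 18 genes, against 30.8% of all genes measured. For the 18 genes this rank also holds the difference between genotypes. Summed over these genes, the Stat4-/- control library, at 263.6 FPKM, already stood below the wild-type LIF library, at 308.4 FPKM. In bulk RNA, fewer cells of a type and less RNA per cell cannot be told apart, here and for each cell type below.

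Other epithelial lineages leaned the same way by smaller amounts. Goblet cell genes were below 0 in 11 of 17 cases (median -0.113, or -0.045 without the filter; wild type -0.071). The lowest was Ern2, a stress sensor of mucus-secreting cells, at 1.71 and 0.95 FPKM (-0.475). Secreted products were among the lowest, with the protease Clca1 (chromosome 3, 145003817 to 145032776) at 69.2 and 50.6 FPKM (-0.44), the mucus protein Fcgbp at 24.4 and 18.9 FPKM (-0.35), the trefoil peptide Tff3 at 268 and 215 FPKM (-0.32) and the mucin Muc2 at 48.9 and 39.6 FPKM (-0.30). Others of them were above 0, Retnlb at 2.2 and 2.51 FPKM (0.13) and Klk1 at 99.4 and 104 FPKM (0.067). The goblet regulators Spdef (4.79 and 4.28 FPKM, -0.13) and Atoh1 (1.66 and 1.46 FPKM, -0.11) differed less, and Agr2, a chaperone of mucin, was at 21.5 and 21.7 FPKM. Absorptive colonocyte genes were below 0 in 17 of 24 cases (median -0.075). The chloride exchanger Slc26a3 was at 3.05 and 1.87 FPKM (-0.50), the brush border protocadherin Cdhr2 at 70.2 and 51.8 FPKM (-0.43) and its partner Cdhr5 at 48.9 and 42.3 FPKM (-0.21). The water channel Aqp8 was at 165 and 160 FPKM (-0.040) and carbonic anhydrase 2, Car2, at 44.1 FPKM in both libraries. The sodium channel subunit Scnn1a was higher (10.3 and 12.9 FPKM, 0.31).

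Stem and crypt base genes were below 0 in 10 of 14 cases (median -0.049), of 20 on the list. Lgr5, the marker of cycling stem cells, was at 0.11 and 0.04 FPKM, so its mRNA was barely detected in either library. Genes of the fetal-like state and of YAP-TEAD signalling were split, 13 above and 12 below 0 (median 0.021), with 2 at least 1.5-fold lower, against 0.554% of all genes. These were Clu, at 170 and 99.1 FPKM (-0.77) and 169 and 140 FPKM in wild type (-0.27), and Msln, at 4.99 and 2.65 FPKM (-0.72). Ly6a, another fetal-like marker, was higher (108 and 129 FPKM, 0.25), and so were the YAP targets Ctgf (92.2 and 102 FPKM, 0.14) and Cyr61 (188 and 210 FPKM, 0.17), while Ankrd1 was lower (2.92 and 2 FPKM, -0.39). Clu and Ly6a, which mark the same regenerative state, thus differed in opposite directions. Antimicrobial and Paneth genes were split 8 to 9 (median -0.054), with the lectins Reg3b at 67.3 and 73.6 FPKM (0.13) and Reg3g at 30.3 and 33.5 FPKM (0.14) and the oxidase Duox2 at 61.3 and 55.4 FPKM (-0.14). Only 4 of 12 tuft cell genes passed the filter, with Dclk1 at 4.14 and 4.34 FPKM. Cell cycle genes were below 0 in 10 of 17 cases (median -0.055), and Mki67 at 2.71 and 2.35 FPKM and Top2a at 1.17 and 0.96 FPKM were low in both libraries. General epithelial genes were high in both, with Krt8 at 3119 and 2972 FPKM and Epcam at 468 and 464 FPKM. Of 11 such genes 10 were below 0, at a median of -0.050, and Krt19 was at 2137 and 1906 FPKM (-0.17) and villin, Vil1, at 121 and 109 FPKM (-0.16).

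Stress and growth genes were slightly higher. Of 22 genes of the unfolded protein and integrated stress response, 19 were above 0 (median 0.099; wild type 0.107). The endoplasmic reticulum chaperone Hspa5 was at 1368 and 1570 FPKM (0.20), its co-secreted factors Manf at 115 and 137 FPKM (0.24) and Creld2 at 107 and 128 FPKM (0.26), and the pseudokinase Trib3 at 30.9 and 37.6 FPKM (0.28). All 16 immediate early genes were above 0 (median 0.082; wild type 0.152), from Jund at 115 and 116 FPKM to Fosb at 7.04 and 8.69 FPKM (0.27). Heat shock chaperones were above 0 in 9 of 12 cases (median 0.072), led by the near-identical pair Hspa1a (49.7 and 63.9 FPKM) and Hspa1b (70.2 and 85.7 FPKM). All 25 cytosolic ribosomal protein genes were above 0 in both genotypes, with medians of 0.138 and 0.110 and a range in Stat4-/- from 0.02 to 0.21. Abundant genes leaned the same way in general, since at 100 FPKM and above 64.8% of all genes were above 0 in this pair (median 0.037) and 67.2% in wild type.

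Markers of blood cells other than macrophages and neutrophils were mostly higher in the Stat4-/- LIF library, and stand here beside the interferon, MHC and chemokine values. Of 24 B and plasma cell genes 12 passed the filter, 11 of these were above 0 with a median of 0.603, and 7 were at least 1.5-fold higher, against 0.448% of all genes. Since a low gene passes the filter more easily when it is high in a library, that count was set beside the 19 genes listed at any level, whose median was 0.461. Cd79a (chromosome 7, 24897381 to 24902197), a B cell receptor subunit, was at 6.5 and 11.3 FPKM (0.72), about 216 and 455 fragments, and at 3.30 and 3.87 FPKM in wild type (0.18). Its partner Cd79b was at 4.31 and 7.32 FPKM (0.65), and at 3.25 and 2.86 FPKM in wild type (-0.14). Pou2af1, a B cell coactivator, was at 1.5 and 3.52 FPKM (0.85). Jchain, which joins secreted antibodies, went the other way at 4.64 and 3.5 FPKM (-0.33). Under the filter, the B cell kinase Blk was at 0.91 and 1.63 FPKM and the transcription factor Pax5 at 0.53 and 0.86 FPKM. The Stat4-/- LIF library was the highest of the 4 for 10 of the 12 genes, against 26.4% of all genes, a rank that the filter favours as well. The summed level was 39.8 and 60.1 FPKM, and 49.2 and 54.4 FPKM in wild type, of which Jchain was 25.6 and 24.98 FPKM.

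**Figure D5:**
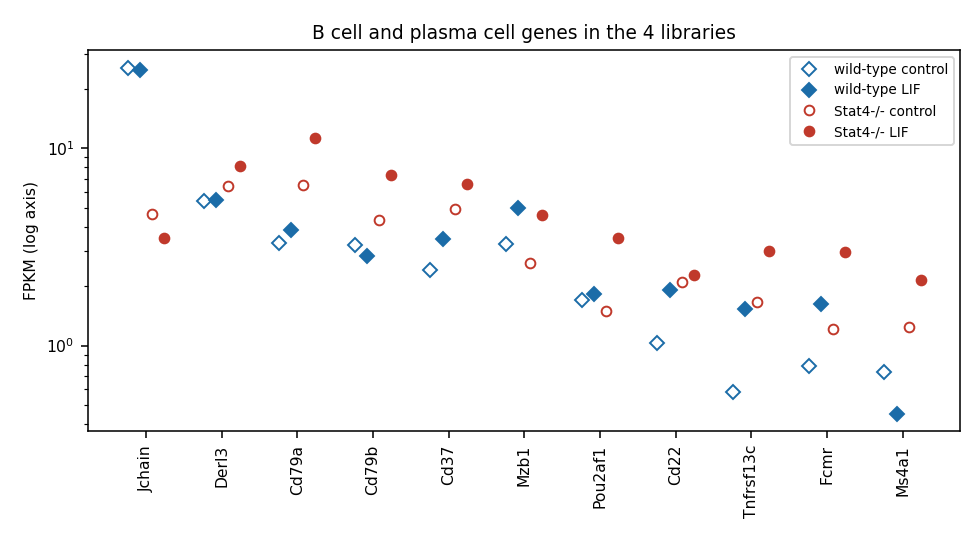
FPKM (log axis) of 11 B cell and plasma cell genes in the 2 wild-type libraries (blue diamonds) and the 2 Stat4-/- libraries (red circles), open for control and filled for LIF. The filled red circle of the Stat4-/- LIF library lies highest for all genes drawn except Jchain and Mzb1, and Jchain, at 25.6, 24.98, 4.64 and 3.5 FPKM from left to right, is the one that differs most between genotypes.

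T and NK cell genes were above 0 in 9 of the 9 that passed the filter, of 21 on the list, with a median of 0.371 (wild type 0.186) and 0.306 without the filter. The kinase Lck was at 1.85 and 3.24 FPKM (0.57), the cytokine receptor Il7r at 3.87 and 5.87 FPKM (0.50) and Cd3e, of the T cell receptor complex, at 1.04 and 1.47 FPKM (0.28). Cd8a was under the filter at 0.38 and 0.45 FPKM. Summed over the 9 genes, the levels were 16.2 and 23.04 FPKM, and 14.4 and 17.2 FPKM in wild type. Macrophage genes leaned lower, 12 of 17 below 0 (median -0.042; wild type 0.094), with Lyz2 at 13.5 and 10.8 FPKM (-0.30), Csf1r at 2.45 and 2.35 FPKM and C1qa at 4.35 and 3.48 FPKM (-0.26). Of 11 neutrophil genes 3 passed the filter, all below 0, and the receptor Csf3r was at 0.61 and 0.40 FPKM. Mast cell genes were above 0 in 4 of 6 cases, with Mcpt2 at 3.70 and 6.13 FPKM (0.60) and Cpa3 at 1.41 and 1.5 FPKM. Of the globin genes, Hba-a1 and Hba-a2 summed to 11.2 and 13.3 FPKM and the beta-globin genes to 15.7 and 21.4 FPKM, and the 4 red blood cell genes measured had a median of 0.344, which was 0.057 without the filter. The part of these cells in the higher interferon, MHC class II and chemokine values was not tested.

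Markers of other cells of the gut wall were measured in both libraries. Smooth muscle genes were below 0 in 10 of 13 cases (median -0.149; wild type 0.00), and 2 were at least 1.5-fold lower, against 0.554% of all genes. Des (chromosome 1, 75360329 to 75368579) was at 24.7 and 15.96 FPKM (-0.60), against 11.7 FPKM in both wild-type libraries. Ppp1r14a was at 9.28 and 5.37 FPKM (-0.69), and Myh11, the smooth muscle myosin, at 25.2 and 17.4 FPKM (-0.51). The Stat4-/- control library was the highest of the 4 for 9 of the 13 genes, against 20.8% of all genes. For Des, Ppp1r14a and Myh11 the Stat4-/- LIF library stood between the Stat4-/- control library and the wild-type libraries. Acta2, at 32.6 and 29.3 FPKM, was below its wild-type levels of 41.6 and 35.3 FPKM instead. Neuronal and glial genes were below 0 in 7 of 11 cases (median -0.148), among them the neuropeptide Npy at 11.1 and 8.03 FPKM (-0.43), which was at 5.71 and 8.85 FPKM in wild type (0.55). Fibroblast genes were balanced, with 6 of 15 above 0 (median -0.019), Col3a1 at 52.2 and 42.6 FPKM (-0.29) and Dcn at 136 and 140 FPKM. Endothelial genes were above 0 in 10 of 15 cases (median 0.074), with Pecam1 at 66.3 and 65.6 FPKM, Cdh5 at 60.8 and 65.3 FPKM and the lymphatic chemokine Ccl21a at 9.08 and 12.9 FPKM (0.47).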

How the data were processed

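The deposited table holds 1 column of FPKM values for each of the 4 libraries, per the file headers, and 0 value columns were left unused. The submitters' processing notes name HISAT, Bowtie2 and the genome build mm10. Versions, annotation and the program with which the authors computed FPKM: not given in the sources used here. Of the gene symbols, 26 had been turned into dates, and 2 of these are listed more than once.

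Differences were taken on log2(FPKM + 1) for genes averaging at least 1 FPKM, which understates the fold of low genes. With 1 library per group, genes were counted at 2-fold and 1.5-fold without a test. The 34 lists hold 666 genes, of which 571 were measured, and 17 are in more than 1 list. The members and lists were chosen with earlier results of these data known. Named were Stat4, Lif, Lifr, Il6st, Stat3 and Socs3, the 15 highest and 15 lowest genes averaging 5 FPKM or more (predicted genes and small RNAs left aside), genes past 2-fold, and the members of each list with the largest differences or that define it. Ifit3b, H2-Q7, Rpl37 and other copies were named after their values were seen. Some list members are counted in their lists but are not reported here by name.

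Positions, transcript lengths, GC content and 31-base words were taken from GENCODE M21 (mm10), where 96.98% of the measured symbols had a single match. Promoters, 250 bases before to 50 after the start, came from RefSeq (GRCm38.p6), and 9448 of the measured genes matched by symbol. Depth was the value at which FPKM times length of genes with 1 transcript of 300 to 1500 bases fell closest to whole numbers. From 131 to 150 genes a library, 58.8 to 66.0% of values came within 0.15 of a whole fragment. The closeness score was 0.410 to 0.545, against at most 0.215 with lengths shuffled. The rule for counting genes past 2-fold was run on simulated data with changes put into genes averaging at least 20 FPKM. No gene past 2-fold in the Stat4-/- pair had such a mean, so the simulation does not cover the genes counted. How close the depths lie to the true ones was not tested. Python 3.11.15, pandas 2.3.3, numpy 2.4.6 and matplotlib 3.10.9 were used.

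The alternatives were a pseudocount of 0.1, dropping the filter, raising it to 5 FPKM, scaling by median of ratios or by upper quartile, leaving out genes with over 50% shared words and, added after seeing the data, centring within bands of GC content and level.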

Additional observations from a re-analysis of the deposited data

Results flagged for a closer look

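For 3 gene lists, with medians of at least 0.05 in size in both pairs, and 5 genes, past 1.5-fold in both pairs, the LIF difference pointed one way in the single Stat4-/- pair and the other way in the single wild-type pair. In each case the difference was not tested. The glycolysis list had a median of -0.174 in Stat4-/- and 0.052 in wild type, the hypoxia targets -0.129 and 0.122, and the 3 measured neutrophil genes -0.095 and 0.186. Among the single genes, Rpl37rt stood at -1.203 in Stat4-/- and 0.917 in wild type. Gm14305 was at -1.558 and 0.638, Selenbp2 at -0.911 and 0.935, 1700109H08Rik at -0.633 and 0.819, and Il4i1 at -0.724 and 0.797. Gm14305 shares 94.0% and Rpl37rt 45.9% of its 31-base words with other genes, between which reads may be split. In the Stat4-/- pair Gm14305 was at 2.21 and 0.09 FPKM, about 75 and 4 fragments.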

How the results depend on the processing

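No paired analysis was possible because each group has 1 library and no result comes from a test, and no replicate could be left out. Counts of genes past a fold depended on the treatment of low values. With a pseudocount of 0.1, 29 genes were 2-fold higher and 38 lower, and 165 were 1.5-fold higher and 195 lower. With the filter raised to 5 FPKM these counts were 2 and 1, and 10 and 18. Leaving out genes with over 50% shared words, 4 were 2-fold higher and 2 lower. Without the filter, 87 were 1.5-fold higher. Centring within bands of GC content and level left 65 higher and 60 lower at 1.5-fold. The cause of the other movements was not tested.

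Of the 34 list medians, 14 were at least 0.1 in size, and all 14 had the same sign under each alternative that left enough genes for a median. The B and plasma cell median ranged from 0.302 (filter at 5 FPKM) to 0.758 (pseudocount of 0.1). The red blood cell median was 0.057 without the filter and 0.474 with the filter at 5 FPKM, and no T and NK cell gene had such a mean. Without genes of over 50% shared words, too few red blood cell genes were left for a median. For list medians this alternative was added after seeing the data. Scaling moved the LIF difference by 0.011 (median of ratios) or -0.001 (upper quartile). Depth limits the weakest genes, since under 5 FPKM the typical counting error was 0.158 on the log2 scale.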
